A study of Mus musculus with 6 samples.

Results

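Transcripts of red cell precursors were followed through RNA-Seq libraries of regulatory T cells (Tregs) from the bone marrow (BM) of naive and CML mice. The genes were chosen by name, as 9 genes used mainly by the erythroid lineage, and the rule does not use their values. Of these, 8 were analysed among the 36930 features of each deposited table: Hba-a1, Hba-a2, Hbb-bs, Hbb-bt, Alas2, Slc4a1, Klf1 and Car2. All 8 had reads in at least 1 library, and 6 of them passed the filter of a mean of at least 1 RPKM (reads per kilobase of coding length, scaled to the depth of the library) over the 6 libraries. Slc4a1 and Klf1 stayed under it.

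The 3 naive and the 3 CML libraries came from 1 mouse each, all Foxp3-DTR-GFP animals of post natal week 8, in which the Foxp3 locus drives the human diphtheria toxin receptor together with GFP. CML mice were non-irradiated animals of this strain that had been injected intravenously with syngeneic LSKs, a stem and progenitor population, transduced with a BCR-ABL1-GFP retrovirus. Naive mice received no leukemia cells. Both the Treg reporter and the leukemia cells of CML mice therefore carry GFP, and the host hematopoiesis of the recipients was left in place. The study's methods name a lysis of red cells before flow cytometry. Tregs were purified by FACS, and the exact gate is not given in the sources used here. The labelled cell type was met by its defining genes, with Foxp3 at 299 to 468 RPKM in the CML group and at 297 to 367 RPKM in naive Tregs, and with reads for all 10 genes of the Treg and T cell marker list in every library. Depth, estimated from the steps between low values, was 829176 to 7613775 reads in CML Tregs and 5188636 to 9751365 reads in naive Tregs. CML replicate 2 had the fewest reads, and naive replicate 3 had the most.

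Red cells are made in the BM from nucleated erythroblasts, which fill with hemoglobin, a protein of paired α and β globin chains that each hold a heme group. The transcription factor Klf1 drives globin and other erythroid genes, Alas2 starts heme synthesis in erythroblasts, and Slc4a1 (band 3) exchanges anions across the red cell membrane. Car2, carbonic anhydrase, turns over carbon dioxide in red cells, but it is also used by other cells, osteoclasts among them. Globin mRNA is among the most abundant mRNAs of late erythroblasts and reticulocytes. In bulk libraries such as these, more cells of a type and more RNA per cell cannot be told apart.

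The sequences of the adult globin genes bear on how far their values can be read apart. The coding regions of Hba-a1 and Hba-a2 are each 429 bases long and differ at 1 base in GENCODE M21, and those of Hbb-bs and Hbb-bt are each 444 bases long and also differ at 1 base. A stretch of 76 coding bases, about the length of 1 read, around each differing base is shown here because only reads over that base tell the copies apart, and the capital letter marks it. The α globin stretches cover coding bases 330 to 405, and the β globin stretches cover coding bases 356 to 431.
Hba-a1: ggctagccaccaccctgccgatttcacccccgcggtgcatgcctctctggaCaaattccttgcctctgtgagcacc
Hba-a2: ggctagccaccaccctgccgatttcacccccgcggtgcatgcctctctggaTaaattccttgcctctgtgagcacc
Hbb-bs: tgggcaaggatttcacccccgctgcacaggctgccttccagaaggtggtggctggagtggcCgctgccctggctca
Hbb-bt: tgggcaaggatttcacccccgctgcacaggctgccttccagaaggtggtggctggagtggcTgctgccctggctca
Of the 354 stretches of this length in the α globin coding region, 86.2% are the same in both copies, and of the 369 in the β globin coding region, 92.4% are. The split of reads within either pair is therefore uncertain, whereas the sum of a pair is less affected by it. How reads with more than 1 match were placed is not given in the sources used here.

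The 8 genes lie on 5 chromosomes of the mouse genome (RefSeq, GRCm38.p6). Hba-a1 (chr11:32283672-32284486) and Hba-a2 (chr11:32296492-32297310) are neighbors on chromosome 11, as are Hbb-bt (chr7:103812524-103813923) and Hbb-bs (chr7:103826523-103827928) on chromosome 7. Slc4a1 (chr11:102348820-102365281), Klf1 (chr8:84901982-84905291), Alas2 (chrX:150547417-150570622) and Car2 (chr3:14886269-14900770) stand apart from the globin clusters. RefSeq promoters were matched for 6 of the 8 genes, Slc4a1 and Car2 not among them. The 250 bases before the start site are shown 5′ to 3′ on the gene's strand for an α globin gene, a β globin gene and Alas2, since these genes are read together in the values that follow. The capitals mark 3 motifs searched on both strands: the Klf1 motif CCNCNCCC, the GATA motif (AGATAA or, with T first, TGATAA, and the same ending in G, AGATAG or else TGATAG) and the CCAAT box.
Hba-a1 (chr11:32283422-32283671, plus strand): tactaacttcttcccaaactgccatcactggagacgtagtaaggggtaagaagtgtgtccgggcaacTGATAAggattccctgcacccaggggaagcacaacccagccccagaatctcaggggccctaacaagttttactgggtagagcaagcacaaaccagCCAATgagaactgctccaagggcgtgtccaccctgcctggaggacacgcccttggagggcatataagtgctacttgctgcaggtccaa
Hbb-bs (chr7:103827929-103828178, minus strand): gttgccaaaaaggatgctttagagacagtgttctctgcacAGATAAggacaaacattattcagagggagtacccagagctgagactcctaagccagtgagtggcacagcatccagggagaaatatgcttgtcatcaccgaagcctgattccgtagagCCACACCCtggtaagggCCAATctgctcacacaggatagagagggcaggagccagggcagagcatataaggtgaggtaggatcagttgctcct
Alas2 (chrX:150547167-150547416, plus strand): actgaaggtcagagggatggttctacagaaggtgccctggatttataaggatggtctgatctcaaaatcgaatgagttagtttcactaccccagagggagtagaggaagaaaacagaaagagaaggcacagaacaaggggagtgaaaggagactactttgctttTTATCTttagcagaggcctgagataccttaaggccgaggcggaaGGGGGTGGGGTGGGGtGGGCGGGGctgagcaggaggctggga
A GATA motif was found in the promoters of Hba-a1, Hba-a2, Hbb-bs, Alas2 and Klf1, and in 27.1% of 27025 promoters of the same length. The Klf1 motif was found at 1 position each in Hbb-bs and Hbb-bt and at 4 positions, 3 of them overlapping, in Alas2, against 45.6% of all promoters with at least 1. A CCAAT box stood in all of the matched promoters but that of Alas2, against 34.5% of all promoters. These matches describe letters only, and binding of a factor was not measured.

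Globin transcripts were detected in every library and were more abundant in each CML library than in any naive one when the 4 genes were summed, but no single gene passed the test. The summed RPKM of Hba-a1, Hba-a2, Hbb-bs and Hbb-bt was 109.9, 35.6 and 192 in CML replicates 1 to 3 and 24.8, 28.2 and 3.27 in naive replicates 1 to 3. The sums did not overlap between the groups, although CML replicate 2 exceeded naive replicate 2 by only 1.26-fold. The mean was 113 ± 78.2 RPKM in the CML group and 18.8 ± 13.5 RPKM in naive Tregs (SD, n = 3 each), a ratio of 6.0. An exact two-sided permutation test gave p = 0.1, which is the smallest p that 3 mice against 3 allow. Leaving out 1 library moved the ratio between 3.88 and 8.05. It was lowest without CML replicate 3 and highest without CML replicate 2.

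The reads behind these sums set how firmly they can be read. The 4 genes together held 364, 13 and 192 reads in CML replicates 1 to 3 and 56, 108 and 14 reads in naive replicates 1 to 3. Per M reads of the library (RPM), this was 47.8, 15.7 and 84.0 in CML Tregs and 10.8, 12.3 and 1.44 in naive Tregs. CML replicates 1 and 3 lay well above the rest, with 95% Poisson intervals of 43.0 to 53.0 and 72.5 to 96.7 RPM. For CML replicate 2 the interval was 8.35 to 26.8 RPM, and the values of naive replicates 1 and 2 lie within it. At this depth, CML replicate 2 was not distinguishable from those naive mice. Naive replicate 3, the deepest library, had the lowest level, with an interval of 0.785 to 2.41 RPM. The naive mice thus differed among themselves by 7.59-fold between replicates 1 and 3 and by 8.64-fold between replicates 2 and 3. The CML mice differed by 5.39-fold between replicates 3 and 2. Such intervals and the floors of 3 reads used for values of 0 cover counting error only, because PCR copies of 1 molecule cannot be told from separate molecules.

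**Figure D1:**
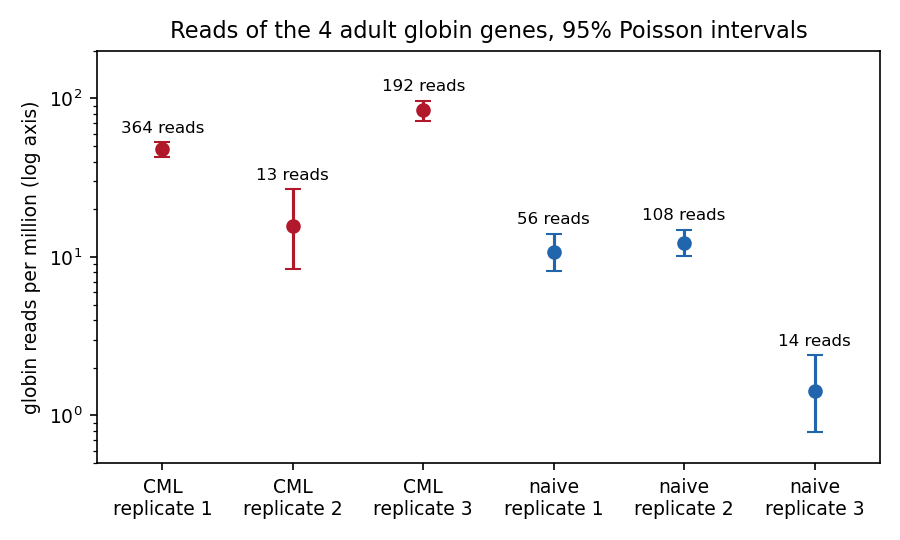
Summed reads of Hba-a1, Hba-a2, Hbb-bs and Hbb-bt in RPM (y axis, log scale) in each of the 6 BM Treg libraries (x axis), with exact 95% Poisson intervals as bars and the number of reads above each point. CML replicates 1 and 3 lie at 47.8 and 84.0 RPM, the interval of CML replicate 2 with its 13 reads spans naive replicates 1 and 2, and naive replicate 3 is lowest at 1.44 RPM.

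Globin transcripts made up little of any library. They took 0.0160%, 0.00436% and 0.0258% of the summed RPKM values of CML replicates 1 to 3 and 0.00352%, 0.00399% and 0.000488% of those of naive replicates 1 to 3. Set against Cd3e, a subunit of the T cell receptor complex, the summed globin level was 24.3%, 9.90% and 47.0% of the Cd3e level in the CML libraries and 8.30%, 7.53% and 0.886% in the naive libraries. On this scale, which uses the same globin reads, the CML libraries lay above the naive ones. CML replicate 2 was close to naive replicates 1 and 2 and rests on 13 globin reads, so it is not distinguishable from them here either. The T cell list itself summed to 2622 to 3594 RPKM in the CML group and 2782 to 3128 RPKM in naive Tregs, and these sums overlapped (exact permutation p = 0.4).

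Hba-a1 and Hba-a2 encode the adult α chains. Hba-a1 was at 39.8, 5.62 and 45.9 RPKM in CML replicates 1 to 3 and at 7.19, 9.57 and 0.956 RPKM in naive replicates 1 to 3. CML replicates 1 and 3 were high and CML replicate 2 fell among the naive libraries, so the groups overlapped. CML replicate 2 rests on 2 reads here, with a 95% Poisson interval of 0.681 to 20.3 RPKM. The difference between CML and naive Tregs was 2.08 ± 0.89 (SE) in log2(RPKM + 1), with an adjusted p of 0.515 in limma. Hba-a2 was at 26.9, 2.81 and 37.7 RPKM in the CML libraries and at 6.74, 4.78 and 0 RPKM in the naive libraries. The order of the libraries was close to that of Hba-a1, again with CML replicate 2 inside the naive range. No read of Hba-a2 was found in naive replicate 3, which allows a level of up to 0.717 RPKM. The log2 difference was 2.18 ± 1.05 with an adjusted p of 0.561. The α globin sums were 66.7, 8.43 and 83.6 RPKM in the CML group and 13.9, 14.4 and 0.956 RPKM in naive Tregs and overlapped (exact permutation p = 0.3).

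Hbb-bs and Hbb-bt encode the adult β chains. Hbb-bs was at 19.8, 19.0 and 75.9 RPKM in CML replicates 1 to 3 and at 5.21, 6.16 and 1.39 RPKM in naive replicates 1 to 3. Every CML library lay above every naive one, and CML replicate 3 stood apart at the top. CML replicate 2 rests on 7 reads here, with a 95% Poisson interval of 7.64 to 39.2 RPKM. The intervals of naive replicates 1 and 2 reach 9.10 and 9.17 RPKM and overlap it. The mean was 38.2 ± 32.6 RPKM against 4.25 ± 2.53 RPKM (SD, n = 3 each), a ratio of 8.99. Without CML replicate 3 the ratio was 4.57. The log2 difference was 2.75 ± 0.64, with an unadjusted p of 0.00282 and an adjusted p of 0.238 in limma. Hbb-bt was at 23.4, 8.15 and 32.5 RPKM in the CML libraries and at 5.64, 7.70 and 0.924 RPKM in the naive libraries. The groups did not overlap, but CML replicate 2 and naive replicate 2 nearly met. CML replicate 2 had 3 reads of this gene, with an interval of 1.68 to 23.8 RPKM that includes naive replicates 1 and 2. The log2 difference was 2.02 ± 0.70 with an adjusted p of 0.418. The β globin sums were 43.2, 27.2 and 108 RPKM in the CML group and 10.9, 13.9 and 2.31 RPKM in naive Tregs and did not overlap (exact permutation p = 0.1, the smallest possible).

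The balance of α to β globin overlapped between the groups. The ratio of the summed levels was 1.55, 0.310 and 0.772 in CML replicates 1 to 3 and 1.28, 1.03 and 0.414 in naive replicates 1 to 3 (exact permutation p = 0.9). The 2 lowest ratios came from CML replicate 2 and naive replicate 3, the libraries with 13 and 14 globin reads. The embryonic and minor globin genes Hba-x, Hbb-y, Hbb-bh1, Hbb-bh2, Hbq1a and Hbq1b had no reads in any of the 6 libraries. Globin reads were thus assigned to the adult genes alone among the globin features analysed.

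Alas2 encodes the erythroid form of the enzyme that makes the first precursor of heme. It was at 5.51, 0 and 8.04 RPKM in CML replicates 1 to 3 and at 2.62, 1.38 and 1.74 RPKM in naive replicates 1 to 3. CML replicates 1 and 3 were the highest, CML replicate 2 was the lowest of all, and the naive libraries lay between. The absence of reads in CML replicate 2 allows a level of up to 2.05 RPKM, which is above naive replicates 2 and 3. The log2 difference was 0.44 ± 0.84 with an adjusted p of 0.878, and it turned to -0.17 without CML replicate 3, to -0.23 at a pseudocount of 0.1 and to -1.28 at a pseudocount of 0.01. Relative to globin, Alas2 was 5.01%, 0% and 4.19% of the summed globin level in the CML libraries and 10.6%, 4.87% and 53.4% in the naive libraries. The share of 53.4% in naive replicate 3 rests on 14 globin reads. In naive replicate 3, Alas2 was the highest of the 8 genes, whereas Hba-a1 or Hbb-bs was the highest in the other 5 libraries. The 95% Poisson intervals in naive replicate 3 were 1.18 to 2.49 RPKM for Alas2 and 0.509 to 3.02 RPKM for Hbb-bs with its 6 reads. The order of these genes there is thus within counting error.

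Klf1 encodes the zinc finger factor that binds CACCC-type motifs of globin and other red cell genes. It was at 1.74, 0 and 2.32 RPKM in CML replicates 1 to 3 and at 0 RPKM in all 3 naive libraries. The reads came from CML replicates 1 and 3, with 15 and 6 reads and 95% Poisson intervals of 0.975 to 2.87 and 0.852 to 5.05 RPKM. The absence of reads from all naive libraries allows a naive level of up to 0.112 RPKM when 3 reads over the group are taken as the floor. The CML mean of 1.35 ± 1.21 RPKM (SD, n = 3) was at least 12.1-fold higher, a bound that takes this mean as exact and covers the naive side only. Leaving out 1 library moved this bound between 7.13, without naive replicate 3, and 18.2, without CML replicate 2, and it was 7.79 without CML replicate 3 and 7.63 without naive replicate 2. The floor of CML replicate 2 was 3.20 RPKM, above the values of both other CML libraries, so Klf1 at their level was not detectable at the depth of this library. The gene was under the filter and was not tested with the others (exact permutation p = 0.4). With no filter on low values its adjusted p was 0.585. Among the 8 genes, Klf1 was the only one with reads in CML libraries and none in naive libraries, and 3.7% of the 20545 features with reads showed that pattern.

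Slc4a1, the anion exchanger that also anchors the red cell skeleton, was at 0.047, 0 and 2.82 RPKM in CML replicates 1 to 3 and at 0.691, 0.654 and 0 RPKM in naive replicates 1 to 3. CML replicate 3 was the highest with 18 reads, CML replicate 1 had 1 read, and the groups overlapped. The floors of the libraries at 0 were 1.30 RPKM in CML replicate 2 and 0.110 RPKM in naive replicate 3. The mean was 0.956 ± 1.62 RPKM in the CML group and 0.448 ± 0.389 RPKM in naive Tregs (exact permutation p = 0.9), and without CML replicate 3 the CML mean was 0.0235 RPKM, below the naive mean. Slc4a1 was thus the gene in which CML replicate 1, second highest for summed globin, fell below naive replicates 1 and 2.

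Car2 had the largest ratio of means among the 7 genes with reads in both groups. It was at 8.22, 6.16 and 44.1 RPKM in CML replicates 1 to 3 and at 1.23, 1.31 and 0.917 RPKM in naive replicates 1 to 3. All CML libraries lay above all naive ones, CML replicate 3 was the highest by far, and the naive libraries were close together. The mean was 19.5 ± 21.4 RPKM against 1.15 ± 0.208 RPKM (SD, n = 3 each), a ratio of 16.9. Without CML replicate 3 the ratio was 6.24. The interval of CML replicate 2, which rests on 4 reads, was 1.68 to 15.8 RPKM and lies above the 3 naive values. Naive replicates 1 to 3 rest on 5, 9 and 7 reads, and their own intervals, which reach 2.87, 2.49 and 1.89 RPKM, overlap it. The log2 difference was 2.75 ± 0.71, with an unadjusted p of 0.00486 and an adjusted p of 0.273 in limma. Car2 did not keep a fixed share of globin, at 7.48%, 17.3% and 23.0% of the summed globin level in the CML libraries and 4.97%, 4.64% and 28.1% in the naive libraries.

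**Figure D2:**
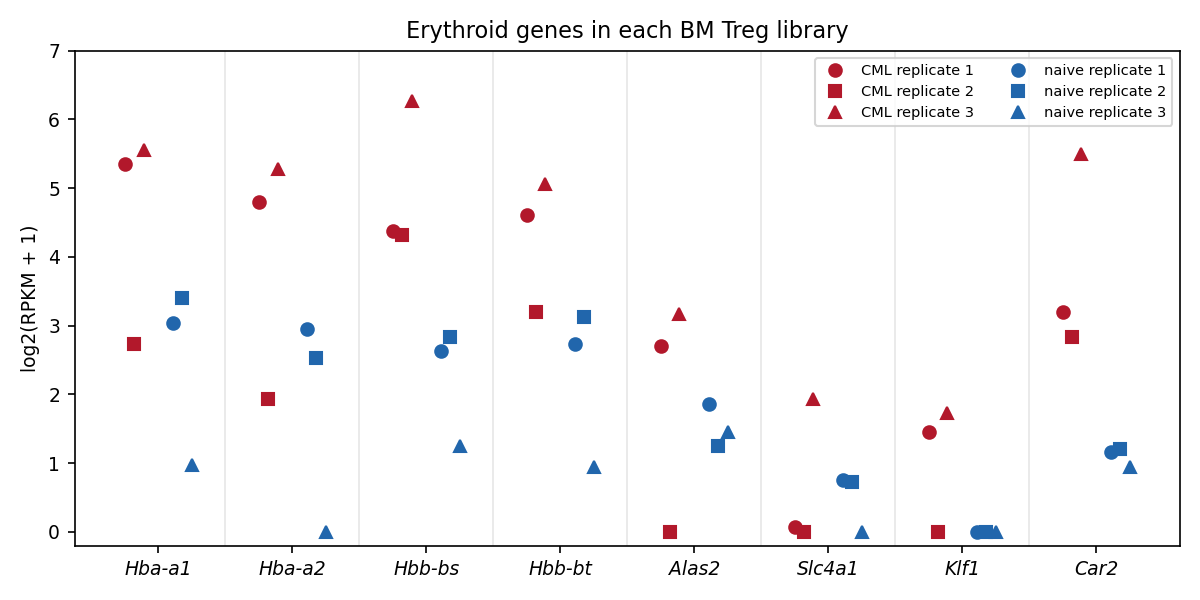
Level of each of the 8 erythroid genes (x axis) in the 6 BM Treg libraries, as log2(RPKM + 1) (y axis), with CML libraries in red and naive libraries in blue and the replicate given by the marker. CML replicates 1 and 3 lead for the globin genes, CML replicate 2 lies among the naive libraries for Hba-a1 and Hba-a2, and for Klf1 only CML replicates 1 and 3 are above 0.

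None of the 6 tested genes passed an adjusted p of 0.05 with a fold of 1.5, against 0.172% of the 13923 features tested in either direction, 0.0431% higher and 0.129% lower in CML Tregs. At an unadjusted p under 0.05 with the same fold, 4 of the 6 had a positive difference and none a negative one, against 2.61% and 5.94% of the features tested. These were Hba-a1, Hbb-bs, Hbb-bt and Car2, while Hba-a2 had an unadjusted p of 0.0733 and Alas2 one of 0.615. All CML libraries lay above all naive ones for Hbb-bs, Hbb-bt and Car2, a pattern of 4.84% of the features tested, and for no member did all lie below, a pattern of 12.2%. The 6 genes passed the filter in part through the group in which they were high, and the globin copies share reads, so these counts are given as a description. All 6 log2 differences were positive, with a median of 2.13, whereas the median over all features tested was -0.18.

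**Figure D3:**
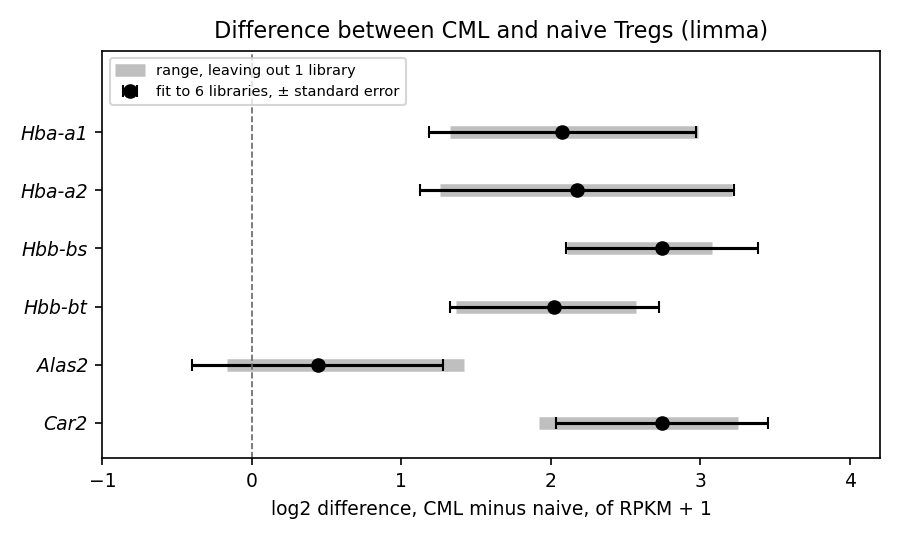
Log2 difference of RPKM + 1 between CML and naive Tregs (x axis) for the 6 erythroid genes tested (y axis), with the standard error from limma as bars and, in gray, the range of the difference when each of the 6 libraries was left out in turn. The globin genes and Car2 stay above 0 throughout, with Hbb-bs and Car2 at 2.75, whereas the range of Alas2 crosses 0.

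Single libraries moved these differences without bringing a call. Without CML replicate 2, the differences were 2.98 for Hba-a1, 3.21 for Hba-a2, 3.08 for Hbb-bs, 2.57 for Hbb-bt, 1.42 for Alas2 and 3.25 for Car2, with adjusted p from 0.178 to 0.285. Without naive replicate 3, they were 1.33 for Hba-a1, 1.26 for Hba-a2, 2.25 for Hbb-bs, 1.36 for Hbb-bt, 0.41 for Alas2 and 2.66 for Car2. Without CML replicate 3, they were 1.57 for Hba-a1, 1.54 for Hba-a2, 2.11 for Hbb-bs, 1.63 for Hbb-bt, -0.17 for Alas2 and 1.92 for Car2. All 6 differences were thus larger without the CML library of fewest reads, and smaller without either the naive library of lowest or the CML library of highest globin level.

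Other genes of the red cell lineage, from 6 lists of heme synthesis, membrane, iron handling, regulator, enzyme and globin genes, were read beside the members. Of 67 genes found, 39 were tested and none passed the adjusted threshold, against 0.172% of all features tested. At an unadjusted p under 0.05 with a fold of 1.5, 2 of the 39 were higher and 1 was lower in CML Tregs. Over all features tested, 2.61% were higher and 5.94% lower at that threshold. The median log2 difference of the 39 genes was 0.11, with 26 of 39 positive, against a median of -0.18 and 35.7% positive over all features tested. By list, the median was 0.12 for heme synthesis (8 genes tested), 0.30 for the membrane (7), 0.16 for iron handling (7), 0.01 for regulators (8) and 0.18 for enzymes and maturation (9). Many of these genes are also used by other nucleated cells. The ferritin chain gene Fth1 was at 204 to 302 RPKM over the 6 libraries and the skeletal protein gene Epb41 at 46.0 to 67.8 RPKM.

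Alas2 hands its product to a chain of enzymes that are used in most cells. Urod, Cpox, Ppox and Fech, which act in the later steps, were at 5.11 to 43.4 RPKM in the CML group and at 10.1 to 31.3 RPKM in naive Tregs. CML replicate 3 had the highest value of Urod, Cpox and Fech, and CML replicate 2 had the lowest value of Urod, Cpox and Fech. For Ppox, all CML libraries lay below all naive ones, with a log2 difference of -0.57 ± 0.31 and an adjusted p of 0.587. In iron handling, the transferrin receptor gene Tfrc was at 43.4, 27.9 and 38.4 RPKM in the CML group and at 31.9, 20.1 and 28.1 RPKM in naive Tregs (log2 difference 0.44 ± 0.27, adjusted p = 0.626). The ferritin light chain gene Ftl1 and the mitochondrial carrier gene Slc25a38 overlapped between the groups, with log2 differences of -0.29 ± 0.23 and 0.47 ± 0.39.

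Among the regulators with the highest levels, the chromatin looping cofactor gene Ldb1 was at 205, 200 and 249 RPKM in CML replicates 1 to 3 and at 299, 280 and 259 RPKM in naive replicates 1 to 3. Every CML library thus lay below every naive one, opposite to Hbb-bs, Hbb-bt and Car2, with a log2 difference of -0.36 ± 0.15, an unadjusted p of 0.0434 and an adjusted p of 0.505 in limma. The repressor genes Zbtb7a and Bcl11a and the signaling gene Stat5a overlapped between the groups, with log2 differences of -0.05, 0.08 and 0.04. Among the enzymes and maturation genes, catalase (Cat) and the nuclear exportin gene Xpo7 also overlapped, with differences of 0.18 and -0.17.

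The 3 genes past the unadjusted threshold and the fold of 1.5 have different known roles. Gata2, a factor of stem, progenitor and mast cells that was named after its values were seen, was at 2.0, 8.36 and 2.42 RPKM in the CML group and at 0, 0.948 and 0 RPKM in naive Tregs, with a log2 difference of 1.88 ± 0.63 and an adjusted p of 0.401. Its highest level was in CML replicate 2, the library of fewest reads in all. For summed globin, CML replicate 2 was the lowest of the CML libraries but above the naive ones. Ube2l6, a conjugating enzyme of the interferon-induced modifier ISG15, was at 34.4, 54.8 and 45.4 RPKM against 19.6, 12.1 and 27.3 RPKM (1.20 ± 0.33, adjusted p = 0.296). Prdx2, a peroxide-reducing enzyme, was lower in each CML library, at 24.2, 16.2 and 21.2 RPKM against 41.0, 36.7 and 36.1 RPKM (-0.87 ± 0.23, adjusted p = 0.282). Gata1, the partner factor of Klf1 in erythroblasts that also acts in megakaryocytes and mast cells, was at 1.90, 3.88 and 3.17 RPKM in the CML group and at 1.24, 8.54 and 3.22 RPKM in naive Tregs, and was named after its values were seen. Gata1 thus had reads in all libraries, the naive ones without Klf1 reads included.

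Several low-level genes of the red cell membrane had reads in CML libraries only. Of the 57 list genes with reads, 9 (15.8%) had reads in CML libraries only and 5 (8.77%) in naive libraries only, against 3.7% and 15.8% of all features with reads. On the membrane list, 7 of 17 genes (41.2%) had reads in CML libraries only and 1 in naive libraries only, although naive Tregs had more reads in all, at 23.7 M against 10.7 M in CML Tregs. The genes that follow were named after their values were seen. Rhag, of the Rh complex, was at 0.1 and 2.46 RPKM and the blood group gene Kel at 1.20 and 0.252 RPKM in CML replicates 1 and 3, both at 0 elsewhere. Rhag and Kel had reads in the same pair of libraries as Klf1, which are the libraries with the most globin. Rhag in CML replicate 1 and Kel in CML replicate 3 were near the floor, where 1 read of Klf1 stands for 0.116 and 0.387 RPKM. The match therefore rests in part on very few reads, in genes picked by their values. Add2, Rhd and Aqp1 showed other pairs or a single CML library. In the other direction, the erythroid and megakaryocyte factor gene Nfe2 was at 0, 2.12 and 1.27 RPKM in naive replicates 1 to 3 and at 0 in the CML libraries, and Epb42, Gfi1b, Car1 and Trim58 each had reads in 1 naive library, at 0.055 to 0.981 RPKM. Among the 4 membrane genes of highest mean level, the glucose transporter gene Slc2a1 had a log2 difference of 0.09 ± 0.37 and the blood group gene Ermap one of 0.75 ± 0.88, with overlapping groups. Gypc, a membrane glycoprotein gene, was at 11.1, 0 and 0 RPKM in CML replicates 1 to 3 and at 1.34, 11.9 and 10.3 RPKM in naive replicates 1 to 3 (-1.60 ± 1.11, adjusted p = 0.666). CML replicate 3, the highest for globin, thus had no reads of Gypc. CML replicates 2 and 3, both at 0 for Gypc, were the libraries of fewest reads, at 829176 and 2286146. A low level of Gypc could therefore be missed in them.

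Markers of other BM cells were read in the same libraries. The summed level of 14 neutrophil and granulocyte precursor genes was 24.3, 218 and 255 RPKM in CML replicates 1 to 3 and 37.7, 65.3 and 68.5 RPKM in naive replicates 1 to 3. CML replicate 1, second highest for globin, was the lowest of all libraries on this list, and CML replicate 2, the lowest of the CML libraries for globin, was near the top. All 10 tested genes of the list had positive differences, against 35.7% of all features tested. Of the 10, 1 was higher at an unadjusted p under 0.05 with a fold of 1.5, against 2.61% of all features tested. None passed the adjusted threshold. A gene can pass the filter through the group in which it is high, so these counts are a description. The list genes under the filter had no reads or a lower mean in the CML group. The 10 monocyte and macrophage genes summed to 70.5 to 140 RPKM in the CML group and 125 to 139 RPKM in naive Tregs, and the 10 B cell genes, 6 of them without reads anywhere, to 23.9 to 45.9 RPKM and 21.8 to 37.0 RPKM. The 6 megakaryocyte and platelet genes were at 0.677, 0 and 1.85 RPKM in the CML group and 2.62, 7.77 and 2.36 RPKM in naive Tregs, and the 5 basophil and mast cell genes at 0 to 3.12 RPKM and 0.173 to 4.02 RPKM. The part of these cells, of depth and of single libraries in the levels of the erythroid genes was not tested.

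The members were also compared in how they varied over the 6 libraries, as a description over libraries that share their depth and group. In log2(RPKM + 1), Pearson's r with the other globin genes was 0.95 for Hba-a1, 0.95 for Hba-a2, 0.87 for Hbb-bs and 0.996 for Hbb-bt, values that shared reads of the copies can raise. It was 0.85 for Car2 and 0.55 for Alas2. Among 11020 other genes, the 5 most like summed globin were Ccna2 (r = 0.98), Ppapdc1b (0.97), Cnih4 (0.97), Abhd4 (0.96) and Commd3 (0.96), and 0.399% of the genes exceeded 0.9. Ccna2, a cyclin of dividing cells, was at 24.7, 14.3 and 28.6 RPKM in the CML group and at 15.5, 13.1 and 8.24 RPKM in naive Tregs.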

How the data were processed

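RNA of FACS-purified BM Tregs from 3 naive and 3 CML mice was measured, 1 library per mouse. The libraries were made from total RNA (RNeasy Micro) with the SMART-Seq v4 Ultra Low Input kit and sequenced as single-end reads on a NextSeq 500, and the authors used SeqMan NGen 15 for assembly and ArrayStar 15 for analysis. The submitters' processing notes name the builds GRCm38 and mm10. The annotation version is not given in the sources used here. The authors deposited 1 table per library whose values were read as RPKM, since the product of value and coding length came in whole steps. Of products up to 20 reads, 71.8% to 75.7% lay within 0.05 of a whole number, against 10% by chance, over 8135 genes with 1 coding length. Read numbers are estimates from these steps, which were tested on simulated data. Whether UTR reads were counted is not known. A value of 0.001 marks no reads and was set to 0.

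The study's methods name DESeq2 with an FDR of 0.05 and a fold of 1.5. Counts were not analysed here, so CML and naive Tregs were compared on the log2(RPKM + 1) scale with limma 3.58.1 (R 4.3.3), over all 13923 features with a mean of at least 1 RPKM, with a trended prior variance, no replicate block and Benjamini-Hochberg adjustment. A fold on this scale understates the change of low genes. Single values were compared with exact two-sided permutation tests over 20 assignments, which cannot go below 0.1. Groups and replicate numbers came from the labels. Python 3.11.15, numpy 2.4.6, pandas 2.3.3 and scipy 1.17.1 were used for the other steps.

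The 9 genes and the lists were chosen with earlier results of these data known. The ninth gene, and 2 genes that enter the list counts only, are not reported here. All 8 analysed genes are named, with the 4 genes of highest mean level on each other erythroid list, list genes that passed the test (none did), and 5 genes with the pattern most like summed globin. Other genes are marked as named after their values were seen. Coordinates and promoters are from RefSeq (GRCm38.p6) and coding sequences from GENCODE M21. Other pseudocounts, filters, scalings, library weights, a replicate block and leaving out each library were tried.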

Additional observations from a re-analysis of the deposited data

How the results depend on the processing

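No member and no gene of the other erythroid lists was called under any of the 17 alternative settings, and the differences of the globin genes and Car2 stayed positive in all of them. They ranged from 1.33 to 2.98 for Hba-a1 (adjusted p 0.212 to 0.893), from 1.26 to 4.37 for Hba-a2 (0.242 to 0.891), from 2.11 to 3.10 for Hbb-bs (0.148 to 0.547), from 1.36 to 2.57 for Hbb-bt (0.231 to 0.812) and from 1.92 to 3.51 for Car2 (0.133 to 0.752). Leaving out 1 library gave 1.26 to 3.21 for Hba-a2, 2.11 to 3.08 for Hbb-bs and 1.92 to 3.25 for Car2. Alas2 turned to -0.23 at a pseudocount of 0.1 and to -1.28 at 0.01, and ranged from -0.17, without CML replicate 3, to 1.42 when 1 library was left out. The cause was not tested. The median difference of all features, -0.18 here, was -0.12 with the 75th percentile set equal, -0.01 with quantile normalization and -0.30 with the Treg and T cell list set equal.

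Of all features, 6 were called higher and 18 lower in CML Tregs. The higher and lower counts were 0 and 0 at a pseudocount of 0.01, 0 and 1 with no filter, 4 and 10 with a mean of at least 0.1 RPKM, 21 and 32 with the 75th percentile set equal, 23 and 30 with quantile normalization, 10 and 26 with equal sums without 4 dominant features, 10 and 39 with the Treg and T cell list set equal, 0 and 11 without a variance trend, and 17 and 28 with library weights. Leaving out 1 library gave 0 to 11 higher and 0 to 27 lower. The median of the membrane list was 0.78 and that of the enzyme list 0.52 with quantile normalization. Leaving out 1 library gave -0.02 to 0.50 for the membrane list, 0.027 to 0.36 for iron handling and 0.16 to 0.50 for the enzyme list.

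With the replicate number as a block, 0 features were called higher and 1 lower, and the adjusted p was 0.407 for Hbb-bs and 0.395 for Car2. Over all features, same-numbered mice did not deviate together (r = -0.0048, -0.0016 and -0.019). These r values cannot show whether mice of the same number shared a sort or a run, which the sources used here do not give. Depth limits CML replicate 2, in which 3 reads of Klf1 would stand for 3.20 RPKM.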
